A study of Mus musculus with 6 samples.

Results

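The 10 genes described here are imprinted genes that control growth and are strongly expressed in fetal tissues, developing muscle among them: H19, Igf2, Igf2r, Grb10, Plagl1, Cdkn1c, Peg3, Mest, Meg3 and Dlk1. They were read by symbol from tables that list 21572 symbols. A row of its own was found for 9 of the 10, and Meg3 was read from a joined entry that it shares with the microRNA genes Mir1906-1 and Mir770. The tissue was soleus, a calf muscle with many slow fibres, of adult C57BL/6 mice, and polyadenylated RNA was sequenced. There were 3 groups of 2 libraries: wild-type (WT) innervated soleus, WT soleus 3 days after denervation, and 3-day denervated soleus labelled Dach2-/-/Hdac9-/-, called DKO-labelled below. Denervation removes the nerve supply of a muscle. Hdac9 encodes a class II histone deacetylase and Dach2 a nuclear co-repressor, and the study asked which genes depend on them in denervated muscle. Innervated Dach2-/-/Hdac9-/- muscle was not analysed here, and how either gene was deleted is not given in the sources used here. The labels do not say whether the 2 libraries of a group came from separate animals, so p-values measure the spread between libraries, which may be technical.

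Imprinted genes are expressed mainly from the copy inherited from 1 parent, and many lie in clusters that share a control region. Several of them act on opposite sides of fetal growth: Igf2 is a growth factor expressed from the paternal copy, whereas Igf2r, Cdkn1c and H19 are expressed from the maternal copy and restrain growth. In muscle, most of these genes are high before birth and fall after it, while H19 stays abundant in the adult. The tables do not separate the 2 parental copies, so imprinting itself was not measured, only the summed RNA of each gene.

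The genes lie in 7 regions of the genome, given on mm9 as the tables list whole gene loci, without stating whether starts count from 0. H19 (chr7:149761436-149764051), Igf2 (chr7:149836672-149856261) and Cdkn1c (chr7:150644243-150646955) are close together at the end of chromosome 7, and Peg3 (chr7:6658670-6683130) lies near its start. Dlk1 (chr12:110691032-110701546) and Meg3 (chr12:110779205-110809939) are neighbours on chromosome 12. Mest (chr6:30688062-30846760) and Igf2r (chr17:12875271-13061009) are listed with loci that also take in overlapping genes, Copg2 for Mest and Airn and Mas1 for Igf2r. Plagl1 (chr10:12810593-12851501) and Grb10 (chr11:11830501-11937423) stand in clusters of their own.

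Levels are given as the authors' FPKM, which scales the fragments of a gene by transcript length and by a factor of each library. Totals ran from 25529434 to 46305449 fragments per library. Dach2 was at 3.85 and 4.29 FPKM in WT innervated, 0.519 and 0.536 in WT denervated and 0.961 and 0.681 in DKO-labelled libraries. Hdac9 was at 4.10 and 3.14, at 1.83 and 0.285, and at 0.534 and 0.181 in the same order. Dach2 was thus no lower in the DKO-labelled than in the WT denervated libraries, and values over a whole gene do not check a deletion within it. Of 11 genes of soleus fibres 10 were read, with no other muscle to compare, so they do not check the tissue label. The other one, the skeletal actin gene Acta1, is listed at 0 in every library. Libraries with sample numbers 14043 to 14045 hold the first replicate of each group and 14049 to 14051 the second. They are called the first and second run of sample numbers, since the labels do not say what the numbers stand for.

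Sequences are shown for the genes on which the denervation results below turn. The upstream windows belong to Peg3 and Igf2r, which rose, and to Meg3 and Mest, which fell. They are the 250 bases before a start site in RefSeq on GRCm38.p6, 5′ to 3′ on the gene's strand, and capitals mark a motif. RefSeq windows were found for 8 of the 10 genes (15 windows, several genes having more than 1 start), and none for H19 and Cdkn1c. Where a gene had several, the one richest in CpG was printed. The windows are chr7:6730420-6730669 (minus strand) for Peg3, chr12:109540746-109540995 (plus) for Meg3, chr17:12769707-12769956 (minus) for Igf2r and chr6:30737800-30738049 (plus) for Mest.
Peg3: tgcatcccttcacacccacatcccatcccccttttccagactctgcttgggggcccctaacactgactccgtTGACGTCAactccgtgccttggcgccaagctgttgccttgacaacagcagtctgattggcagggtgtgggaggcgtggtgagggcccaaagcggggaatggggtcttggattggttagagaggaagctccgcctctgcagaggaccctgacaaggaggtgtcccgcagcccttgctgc
Meg3: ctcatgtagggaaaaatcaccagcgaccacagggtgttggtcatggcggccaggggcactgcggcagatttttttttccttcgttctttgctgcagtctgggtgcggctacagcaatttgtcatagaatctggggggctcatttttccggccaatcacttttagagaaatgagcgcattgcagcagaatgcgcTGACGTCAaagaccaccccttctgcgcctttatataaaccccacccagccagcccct
Igf2r: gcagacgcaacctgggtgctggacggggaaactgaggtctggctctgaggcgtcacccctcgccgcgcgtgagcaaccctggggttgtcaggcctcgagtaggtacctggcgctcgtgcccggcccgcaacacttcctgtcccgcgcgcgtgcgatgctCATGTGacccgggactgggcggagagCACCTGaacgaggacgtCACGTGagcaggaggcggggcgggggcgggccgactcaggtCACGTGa
Mest: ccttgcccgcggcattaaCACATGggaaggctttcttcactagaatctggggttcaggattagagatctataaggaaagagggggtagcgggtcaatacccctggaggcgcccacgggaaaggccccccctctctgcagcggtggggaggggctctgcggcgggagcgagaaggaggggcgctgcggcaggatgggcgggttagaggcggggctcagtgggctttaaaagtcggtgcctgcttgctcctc
Capitals in Peg3 and Meg3 mark TGACGTCA, the consensus cAMP response element, whose first base lies 178 bases before the Peg3 start and 57 before the Meg3 start. That motif is in 1.55% of all 32851 RefSeq windows of this length. Capitals in Igf2r and Mest mark the E-box CANNTG, the motif of myogenic and other bHLH factors, found 4 times in Igf2r and once in Mest. An E-box is in 66.2% of all windows. Both motifs read the same on either strand, and the printed matches do not overlap. GGGCGG (the GC box, in 32.7% of windows) and TATAAA (the TATA box, in 12.4%) were also searched on both strands. The Igf2r window held 3 GC boxes and the Mest window 1. The Meg3 window held 2 matches to TATAAA, 1 on each strand, which overlap each other within a single stretch. The motifs were chosen after the sequences and the changes were seen, and a match describes letters only.

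Of the 10 genes, 4 also carry a microRNA, shown because short RNA of these hosts was not measured by polyadenylated sequencing. Capitals mark the seed, bases 2 to 8, of the 5p arm in RefSeq.
mmu-miR-675-5p: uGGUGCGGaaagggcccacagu
mmu-miR-483-5p: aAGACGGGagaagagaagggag
mmu-miR-335-5p: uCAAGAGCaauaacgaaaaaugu
mmu-miR-770-5p: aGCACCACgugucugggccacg
In the GENCODE M21 annotation of GRCm38.p6, miR-675 lies in an exon of H19, miR-770 in an exon of at least 1 Meg3 transcript, miR-483 in an intron of Igf2 and miR-335 in an intron of Mest. The 4 seeds differ from each other. The tables' own entries for Mir335 and Mir483 held 0 fragments in every library, so the host values below say nothing of the mature microRNAs.

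In innervated soleus the mean FPKM of the 10 genes spanned more than 4 orders of magnitude, and in replicate 1 alone somewhat less than 4. H19 led at 2202 ± 1706 FPKM (SD, n = 2 here and below), with a large spread described further on. Igf2r was at 18.2 ± 1.35, Meg3 at 13.4 ± 5.72, Grb10 at 13.2 ± 2.20, Cdkn1c at 9.80 ± 1.59, Igf2 at 8.75 ± 4.81 and Mest at 5.88 ± 2.80 FPKM. Peg3 was at 1.77 ± 0.624 and Plagl1 at 1.17 ± 0.958 FPKM, and the libraries of Dlk1 read 0.115 and 0.0441. The libraries of each gene overlapped those of the next in this order, except between H19 and Igf2r, Grb10 and Cdkn1c, Mest and Peg3, and Plagl1 and Dlk1. The order was different in WT denervated soleus, where Igf2r (36.3 ± 4.61), Grb10 (13.1 ± 0.266) and Peg3 (10.6 ± 2.28 FPKM) followed H19 (1211 ± 670). Igf2 (3.93 ± 2.01), Cdkn1c (3.43 ± 0.369), Meg3 (1.91 ± 1.09) and Mest (1.24 ± 0.607 FPKM) came next, and Plagl1 (0.390 ± 0.176) and Dlk1 (0.0185 ± 0.00930) were lowest. There the libraries of Igf2 and Cdkn1c overlapped, and those of Meg3 and Mest, but no other neighbours in the order. In DKO-labelled soleus the means were 41.8 FPKM for Igf2r, 11.5 for Grb10 and 9.78 for Peg3, and between 2.70 for Meg3 and 0.0357 for Dlk1 in the others apart from H19.

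**Figure D1:**
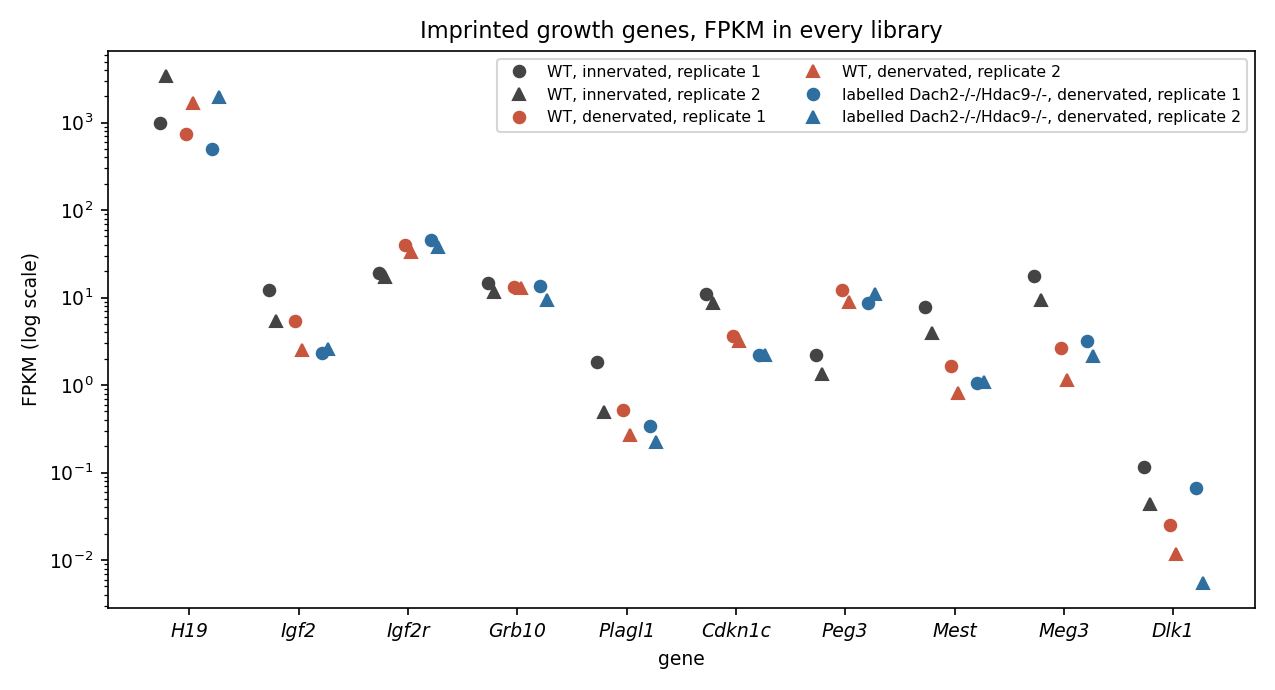
FPKM (log scale) of the 10 genes in each of the 6 libraries, coloured by group, with circles for replicate 1 and triangles for replicate 2. Igf2r and Peg3 lie higher in all 4 denervated libraries than in the innervated ones, Mest, Meg3 and Cdkn1c lie lower, and the triangles of H19 stand above its circles in each group.

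Denervation of WT soleus moved the set in both directions. Peg3 and Igf2r rose 6.22-fold and 2.09-fold, Meg3 fell 5.93-fold, Mest 4.63-fold and Cdkn1c 2.75-fold, and H19, Igf2, Plagl1 and Grb10 did not pass the test (edgeR quasi-likelihood, Benjamini-Hochberg adjusted p under 0.05 over 12247 genes). So 2 of the 9 genes tested were higher and 3 lower, where 28.7% of all genes tested were called, 14.4% higher and 14.3% lower. The libraries of 5 of the 9 did not overlap between the groups, below the share of all genes, 70.6%. The median log2 fold change of the 9 was -1.09, beside 0.00 for all genes. Dlk1 was too low to be tested. Genes called numbered 1759 higher and 1753 lower. Scaling by library totals in place of TMM moved the median of all genes by 0.27 on the log2 scale and gave 3331 higher and 1144 lower, with 2 and 3 of the imprinted growth genes still called.

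Peg3 encodes a zinc finger protein expressed from the paternal copy. It was at 2.22 and 1.33 FPKM in WT innervated, 12.2 and 8.95 in WT denervated and 8.64 and 10.9 in DKO-labelled libraries, so the denervated libraries all lay above the innervated ones. The log2 change in WT was 2.64 ± 0.30 (SE, adjusted p = 0.00407), with 2.49 in the first run of sample numbers and 2.78 in the second. This was the 1 call of the set that held in all 15 alternative fits, with adjusted p up to 0.0451.

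Igf2r encodes the cation-independent mannose 6-phosphate receptor, which carries lysosomal enzymes to the lysosome and removes Igf2 from the cell surface. Its libraries read 19.2 and 17.3, then 39.5 and 33.0, then 45.5 and 38.0 FPKM, again with no overlap between innervated and denervated muscle. The log2 change was 1.06 ± 0.18 (adjusted p = 0.00941), at 1.10 and 1.02 in the 2 runs.

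Meg3 is a long noncoding RNA expressed from the maternal copy of the Dlk1-Meg3 cluster. It was at 17.5 and 9.37 FPKM in WT innervated, 2.69 and 1.14 in WT denervated and 3.23 and 2.17 in DKO-labelled libraries. The log2 change was -2.57 ± 0.48 (adjusted p = 0.0131), at -2.37 and -2.76 by run. Dlk1, the Notch-ligand-like membrane protein of the same cluster, held only 17 and 5 fragments in WT innervated, 7 and 2 in WT denervated and 13 and 1 in DKO-labelled libraries. These counts are too few to show a difference.

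Mest encodes a protein of the alpha/beta hydrolase family and is expressed from the paternal copy. It read 7.86 and 3.90 FPKM in WT innervated, 1.67 and 0.809 in WT denervated, and 1.07 in both DKO-labelled libraries. The log2 change was -2.21 ± 0.46 (adjusted p = 0.0177), at -2.12 and -2.03 by run. Cdkn1c, the cyclin-dependent kinase inhibitor p57, read 10.9 and 8.68, then 3.69 and 3.16, then 2.23 and 2.18 FPKM. Its replicates lay close together in each group, and its log2 change was -1.46 ± 0.21 (adjusted p = 0.00664), at -1.48 and -1.32 by run.

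The calls of Igf2r, Meg3, Mest and Cdkn1c all rested on having both innervated libraries, and kept their direction without either. Without innervated replicate 1 the adjusted p was 0.0738 for Igf2r, 0.0864 for Meg3, 0.115 for Mest and 0.0683 for Cdkn1c. Without innervated replicate 2 it was 0.0996, 0.0623, 0.0586 and 0.0568 in the same order. Over all genes those 2 fits called 177 higher and 291 lower, and 83 higher and 119 lower. A lone library is assumed there to vary like the other groups.

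Igf2, the growth factor, was at 12.1 and 5.35 FPKM in WT innervated and 5.35 and 2.505 in WT denervated libraries. The groups met at 5.35 FPKM, and the log2 change of -1.09 ± 0.48 did not pass (adjusted p = 0.126), although it was -1.12 and -0.98 in the 2 runs. Without WT denervated replicate 1 it passed, at -1.75 (adjusted p = 0.0330). Plagl1, a zinc finger transcription factor, read 1.85 and 0.493 FPKM, then 0.515 and 0.266. Here the innervated libraries differed 3.78-fold in TMM-scaled CPM, the change was -1.68 and -0.70 in the 2 runs, and the log2 change of -1.55 ± 0.65 did not pass (adjusted p = 0.118), though it did in 1 of 14 alternatives. Grb10, an adaptor protein that dampens insulin and IGF receptor signalling, read 14.8 and 11.6, 13.3 and 12.9, and 13.7 and 9.29 FPKM in the 3 groups, which overlap. Its log2 change was 0.02 ± 0.22 (adjusted p = 0.955).

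H19, a noncoding RNA, gave a different picture by FPKM and by fragments. It was at 995 and 3408 FPKM in WT innervated, 737 and 1684 in WT denervated and 495 and 1983 in DKO-labelled libraries, so replicate 2 was the higher in each group. Its raw fragments were 96930 and 46633, 130465 and 47926, and 64505 and 59880. After TMM scaling, as CPM (counts relative to the scaled library total), these made 3416 and 2162 in WT innervated, 2653 and 1524 in WT denervated and 1825 and 1805 in DKO-labelled libraries, so replicate 1 was the higher in each. FPKM per 1000 scaled fragments was 8.71, 8.51 and 8.31 in the first run of sample numbers and 46.7, 34.1 and 34.0 in the second. This 5.63-fold spread ranked 9th of 11068 genes with at least 50 fragments in every library, whose median spread was 1.04, and 0.172% of them exceeded 2-fold. In the other 9 imprinted growth genes the spread was at most 1.18. What set H19 apart was not tested. By fragments, the log2 change on denervation was -0.42 ± 0.33 (adjusted p = 0.363), at -0.36 and -0.50 by run, and the groups overlapped.

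**Figure D2:**
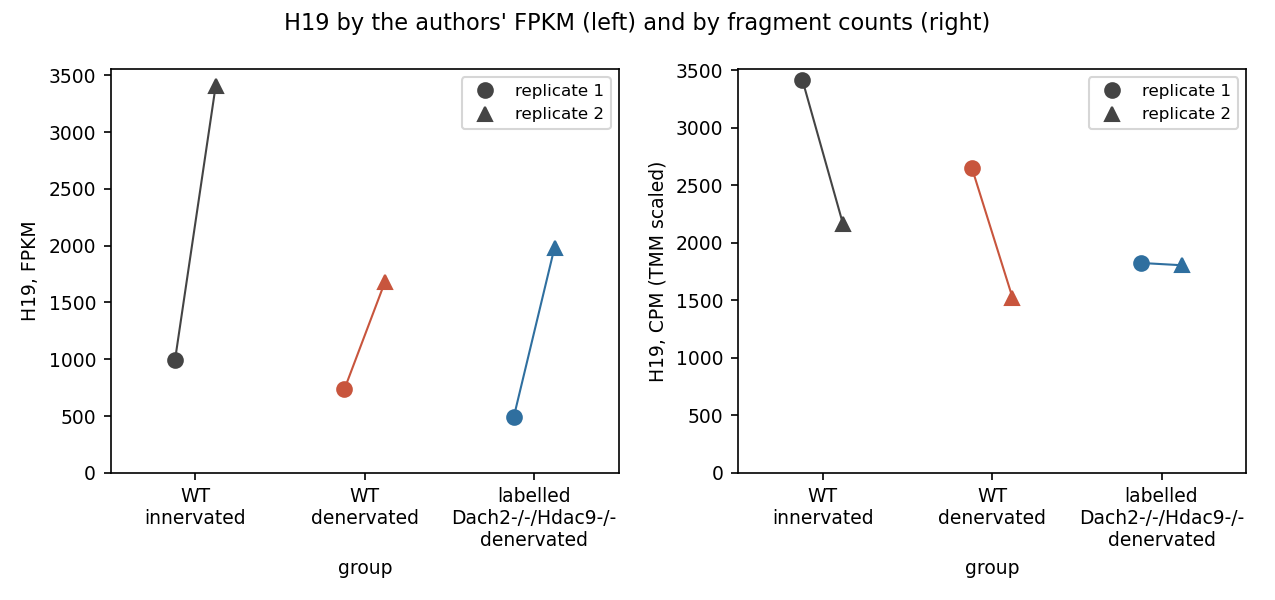
H19 in each library by group, as FPKM (left) and as TMM-scaled CPM (right), with lines joining replicate 1 (circle) and replicate 2 (triangle) of a group. FPKM places replicate 2 above replicate 1 in each group, at 3408 against 995 in WT innervated muscle, while fragments place replicate 1 above, at 3416 against 2162.

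Replicate 1 was the higher in TMM-scaled fragments for all 10 genes in WT innervated and again in WT denervated muscle, and for 6 of 10 in DKO-labelled muscle. Over all genes tested replicate 1 was the higher in 47.0%, 50.8% and 49.8%. In innervated muscle the ratio of replicate 1 to 2 was 3.78 for Plagl1, 2.31 for Igf2, 2.03 for Mest, 1.75 for Meg3, 1.68 for Peg3, 1.58 for H19, 1.28 for Cdkn1c, 1.25 for Grb10 and 1.12 for Igf2r. The summed markers of other cell types in innervated muscle gave ratios of 1.55 for macrophages, 1.42 for tendon, 1.22 for fibroblasts, 1.03 for satellite cells, 0.986 for Schwann cells, 0.967 for pericytes and smooth muscle, 0.861 for endothelium and 0.846 for soleus fibres. In WT denervated muscle the ratio was 2.42 for Meg3, 2.12 for Igf2, 2.04 for Mest, 1.92 for Plagl1 and 1.74 for H19, and between 1.02 (Grb10) and 1.35 (Peg3) for the other 4 genes tested. The marker lists there ran from 1.09 (Schwann cells) to 2.10 (fibroblasts), with tendon at 1.98. In DKO-labelled muscle the marker lists ran from 1.03 (soleus fibres) to 1.85 (macrophages), with fibroblasts at 1.44, whereas Igf2 was at 0.879, Mest at 0.988, Peg3 at 0.783 and Cdkn1c at 0.999. The other 5 genes tested ran from 1.01 (H19) to 1.51 (Plagl1). The part of these cells in the values was not tested.

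Of the same 8 marker lists, 7 had genes called on denervation of WT muscle, where 28.7% of all genes tested were called. Fibroblast markers (3 of 10) were near that share, and macrophage (1 of 9) and satellite cell markers (0 of 9) were below it. Summed endothelial markers went from 685 to 796 CPM in WT innervated to 326 to 370 in WT denervated libraries, and 9 of 10 fell. Of pericyte and smooth muscle markers 7 of 9 fell (927 to 958, then 423 to 628). Fibroblast markers summed to 4119 to 5019, then 1357 to 2847, and 3 of 10 fell: Gsn, Smoc2 and Dpt. Soleus fibre markers summed to 80460 to 95144, then 27993 to 37057, and 7 of 10 fell. Of 9 Schwann markers Prx, Pmp22, Mbp and S100b fell and Ngfr rose (216 to 219, then 145 to 158). Tendon markers Fmod, Mkx, Chad and Tnmd fell and Scx rose (656 to 928, then 272 to 538). Of macrophage markers Cd68 rose (299 to 464, then 417 to 590). Of 9 satellite cell markers edgeR called 0, with 4 at an unadjusted p under 0.05, 2 called by DESeq2 and 1 by limma (454 to 470, then 468 to 568). Of those 4, Sdc4 was higher (log2 1.28 ± 0.43), although Cd34 (-1.34 ± 0.42), Fgfr4 (-0.84 ± 0.33) and Pax7 (-0.76 ± 0.31) were lower. Fgfr4 and Pax7 were named after their values were seen. No marker was at 0 in every library apart from Acta1. In whole muscle, fewer cells of a type and less RNA per cell cannot be told apart, and the part of these shifts in the changes of Meg3, Mest, Cdkn1c, Peg3 and Igf2r was not tested.

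Dach2 and Hdac9 status made no difference that passed the test in any of the imprinted growth genes. Comparing DKO-labelled with WT muscle, both denervated, edgeR called 0 of 9, DESeq2 0 and limma 0, and 1 gene, Cdkn1c, had an unadjusted p under 0.05. Over all genes 0.0408% were called (5 genes), and 6.11% had an unadjusted p under 0.05. The median log2 change of the 9 was -0.20, beside -0.02 for all genes. Cdkn1c was at 3.69 and 3.16 FPKM in WT and 2.23 and 2.18 in DKO-labelled muscle. Its log2 change was -0.58 ± 0.21 (edgeR adjusted p = 0.745), at -0.64 and -0.44 by run. It was the only 1 of the 9 whose libraries did not overlap, against 28.5% of all genes.

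The other differences between the denervated groups lay between -0.66 and 0.47 on the log2 scale, with none called. Igf2 differed by -0.66 ± 0.48, Plagl1 by -0.49 ± 0.66, Meg3 by 0.47 ± 0.46, Mest by -0.23 ± 0.45, Igf2r by 0.21 ± 0.17, H19 by -0.20 ± 0.33, Grb10 by -0.19 ± 0.22 and Peg3 by -0.12 ± 0.28 on the log2 scale (edgeR adjusted p of at least 0.968). A p of this size does not show that the groups are alike. H19, Igf2, Peg3, Mest and Grb10 differed in opposite directions by run: -0.54 and 0.24 for H19, -1.16 and 0.07 for Igf2, -0.50 and 0.28 for Peg3, -0.58 and 0.34 for Mest, and 0.04 and -0.48 for Grb10. Without WT denervated replicate 1, the deepest library, H19 (0.26), Peg3 (0.12), Mest (0.39) and Plagl1 (0.07) turned positive, none of them called.

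DKO-labelled denervated muscle was also set beside WT innervated muscle. This comparison shares libraries with both others, so its values are given for completeness. Peg3 rose by 2.52 ± 0.30 (5.73-fold, adjusted p = 0.00321) and Igf2r by 1.27 ± 0.18 (2.42-fold, 0.00472) on the log2 scale. Mest fell 5.42-fold (log2 -2.44 ± 0.47, adjusted p = 0.0119), Meg3 4.28-fold (-2.10 ± 0.47, 0.0198) and Cdkn1c 4.11-fold (-2.04 ± 0.22, 0.00243). Igf2 passed here, falling 3.38-fold (-1.76 ± 0.49, adjusted p = 0.0369), with 2.30 and 2.60 FPKM in the DKO-labelled libraries. That makes 2 higher and 4 lower of 9, with 31.4% of all genes called, 15.2% higher and 16.2% lower. The median of the 9 was -1.76, beside 0.01 for all genes, and the libraries of 8 of 9 did not overlap, against 76.4% of all genes. Plagl1 fell short (log2 -2.04 ± 0.67, adjusted p = 0.0601), with DKO-labelled libraries at 0.339 and 0.2218 FPKM, below both innervated ones. It was called in 6 of the 14 alternatives that tested it, among them DESeq2 (adjusted p = 0.00817), no filter (0.0240) and a fit of the 4 libraries compared (0.0406). H19 (-0.62 ± 0.33, adjusted p = 0.190) and Grb10 (-0.18 ± 0.22, 0.574) were not called. Igf2 was called in 10 of 15 alternatives and lost the call without innervated replicate 1 (adjusted p = 0.209), innervated replicate 2 (0.0525), DKO-labelled replicate 1 (0.143) or DKO-labelled replicate 2 (0.150), and with library totals in place of TMM (0.0622).

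In the same comparison, Meg3 lost its call without innervated replicate 1 (0.119), innervated replicate 2 (0.0584), DKO-labelled replicate 1 (0.0636) or replicate 2 (0.126), by edgeR's adjusted p. Mest lost it without innervated replicate 1 (0.0811), DKO-labelled replicate 1 (0.0621) or replicate 2 (0.0795), and Igf2r without innervated replicate 2 (0.0627). Peg3 and Cdkn1c were called in all 15 alternatives.

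**Figure D3:**
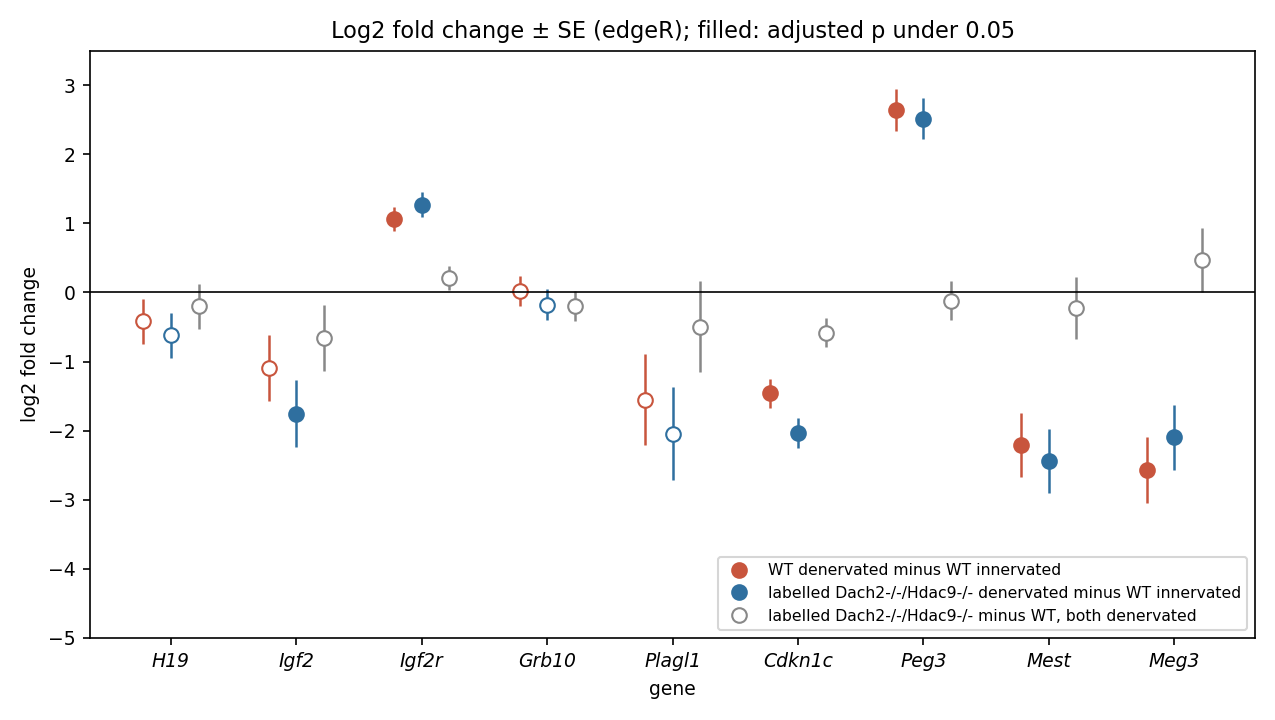
Log2 fold change ± SE of the 9 tested genes in the 3 comparisons, filled where the adjusted p was under 0.05. Peg3 (2.64 in WT) and Igf2r (1.06) lie above 0 and Mest, Meg3 and Cdkn1c below it in both comparisons with innervated muscle, while every point of the comparison of the denervated groups is open.

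Genes that share a cluster with these members were read from lists of neighbours, not all of which are imprinted. On denervation of WT muscle 28.7% of all genes tested were called, 14.4% higher and 14.3% lower. In the Peg3 cluster 2 neighbours were tested and both rose in denervated WT muscle: Zim1, a zinc finger gene, from 0.382 ± 0.226 to 1.74 ± 0.328 FPKM (log2 2.21 ± 0.48, adjusted p = 0.0198), and Apeg3, 6.69-fold. Apeg3 is transcribed antisense to Peg3 and shares its locus. The fragments of Peg3 were fractional in all 6 libraries, and the strand setting is not given, so Peg3 and Apeg3 cannot be told apart fully. Usp29, which shares the Peg3 promoter region, held 1 to 6 fragments per library.

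In the Dlk1-Meg3 cluster 6 neighbours were tested, of which 1 rose and 2 fell, where 28.7% of all genes tested were called. Rian, a noncoding RNA that like Meg3 comes from the maternal copy, fell 5.34-fold from 4.37 ± 1.68 to 0.799 ± 0.691 FPKM (log2 -2.42 ± 0.63, adjusted p = 0.0323), in the same direction as Meg3. Mirg, the next noncoding RNA, held 23 and 18 fragments in WT innervated, 8 and 4 in WT denervated and 7 and 7 in DKO-labelled libraries, below the limit for testing. Dio3, the deiodinase that inactivates thyroid hormone, rose from 0.0661 ± 0.0637 to 1.86 ± 0.997 FPKM (log2 4.76 ± 0.68, adjusted p = 0.00635). It was at 3.06 ± 0.118 FPKM in DKO-labelled muscle. Slc25a29, a mitochondrial carrier gene near the cluster, fell 2.76-fold. Rtl1 held 0 to 11 fragments per library.

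Around H19, Igf2 and Cdkn1c, 7 neighbours were tested, where 28.7% of all genes tested were called. Osbpl5, a lipid transfer protein gene, rose 3.28-fold (adjusted p = 0.00590 by edgeR) and Tnnt3, the fast troponin T gene, fell 1.90-fold (0.0185). Kcnq1ot1, the noncoding RNA antisense to Kcnq1, was below the limit, with 89 to 252 fragments over a long transcript, and Phlda2 is listed at 0. Around Igf2r, edgeR called 0 of 3, DESeq2 1 and limma 0, with 1 at an unadjusted p under 0.05. Airn, the noncoding RNA antisense to Igf2r, had a log2 change of 0.59 ± 0.31 (adjusted p = 0.193), and its fragments cannot be told apart from those of Igf2r where the genes overlap. Copg2, which overlaps Mest, changed by 0.73 ± 0.27 (adjusted p = 0.0832), a value opposite in sign to that of Mest. It was the 1 neighbour tested there, and DESeq2 called it whereas limma did not. Near Grb10 and Plagl1, 3 of 5 rose, where 14.4% of all genes tested were called higher. They were Ddc, the dopa decarboxylase gene, 9.51-fold, the actin regulator Cobl 1.89-fold and the ribosome assembly factor Ltv1 1.83-fold. The groups of Grb10 itself overlapped.

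**Figure D4:**
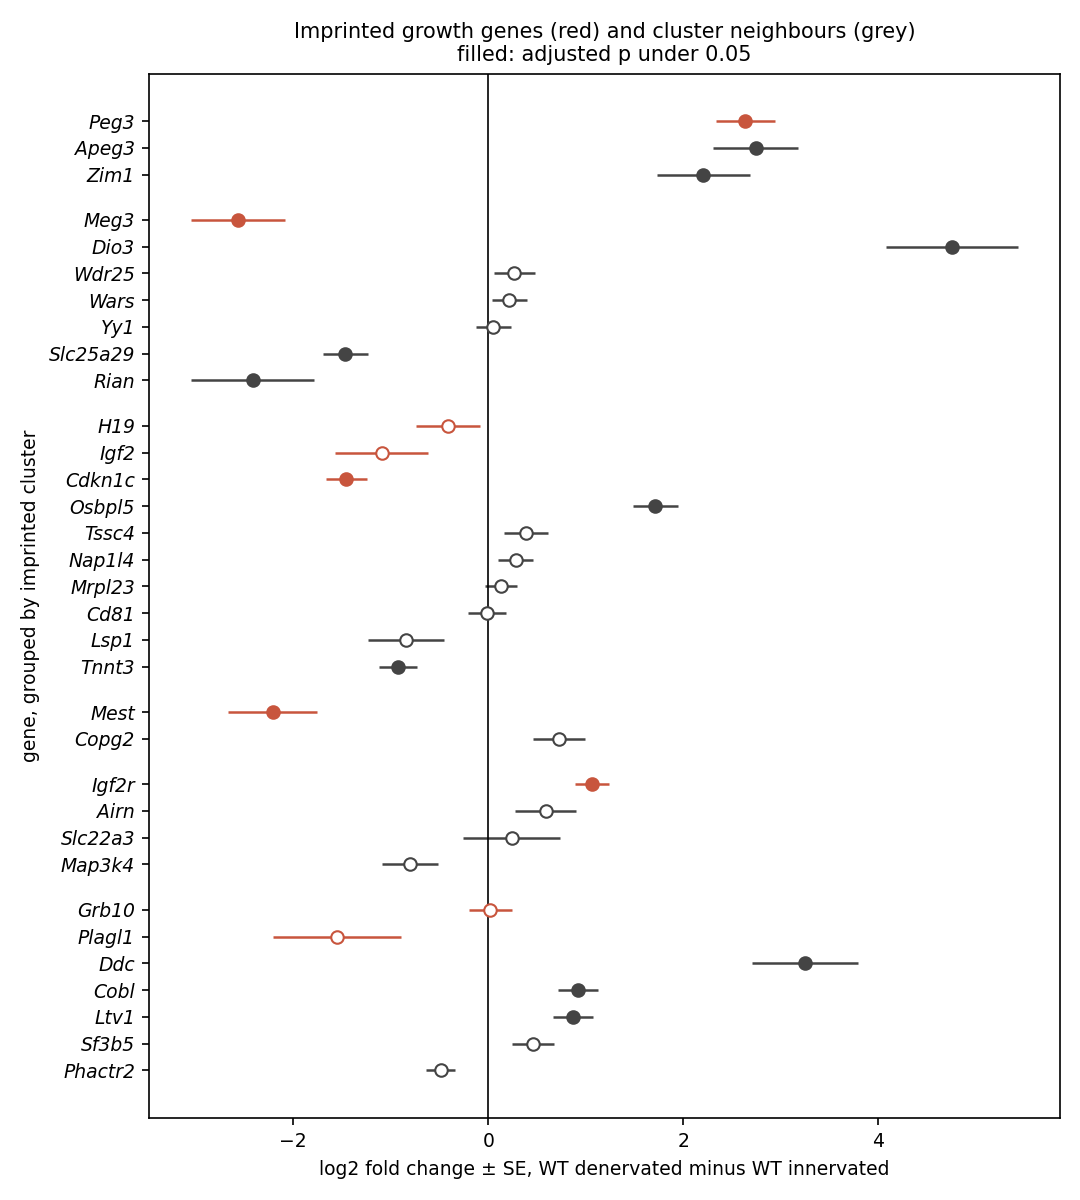
Log2 fold change ± SE in WT denervated minus WT innervated muscle of the 9 tested imprinted growth genes (red) and of the tested genes near them (grey), filled where the adjusted p was under 0.05. The Peg3 block lies to the right of 0, Meg3 and Rian lie to the left at -2.57 and -2.42, and Dio3 of the same block lies at 4.76.

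Of 23 other imprinted genes tested, 3 rose and 4 fell in denervated WT muscle, with a median log2 change of -0.27. Ampd3, the AMP deaminase gene, rose 5.15-fold, Pon2 1.53-fold and Mcts2 1.93-fold. Nnat (neuronatin) fell 6.13-fold from 12.7 ± 8.75 to 2.05 ± 0.809 FPKM, and Gnas, the stimulatory G protein gene, 1.52-fold, with Ndn and Dcn at 2.29-fold and 1.48-fold. Mcts2, Ndn and Dcn were named after their values were seen, to complete the counts. Gnas, Ndn, Dcn and Mcts2 were each not called in 8 of the 15 alternative fits, and Ampd3, Pon2 and Nnat in 2. The share called was 7 of 23, near the 28.7% of all genes.

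Genes that act with the members were read next. Of 12 genes of the IGF pathway, Igfbp6, an IGF binding protein with a preference for Igf2, fell 2.32-fold (46.0 ± 2.48 to 18.6 ± 1.46 FPKM), and Irs1, the docking protein of the insulin and IGF1 receptors, fell 4.43-fold. The other 10 were not called by edgeR, which called 28.7% of all genes tested. Of the 12, 6 had an unadjusted p under 0.05, and DESeq2 called 5 and limma 2. Over all 12247 genes DESeq2 called 2268 higher and 2248 lower, and limma 1487 and 2016. Igf1 differed by -0.30 ± 0.35 and Igf1r by 0.10 ± 0.16 on the log2 scale. Of 19 genes of mannose 6-phosphate sorting, the route that Igf2r serves, 3 rose: the lysosomal proteases Ctsl 3.63-fold and Ctsd 2.18-fold, and M6pr, the cation-dependent mannose 6-phosphate receptor, 1.81-fold. This count of 3 in 19 was near the share of all genes tested that were called higher, 14.4%. Of the list, 0 were called lower, and its median was 0.10.

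Of 5 cyclin-dependent kinase inhibitors other than Cdkn1c, Cdkn1a (p21) rose 17.7-fold, from 12.8 ± 0.320 to 217 ± 151 FPKM (log2 4.14 ± 0.58, adjusted p = 0.00625), so the 2 relatives moved in opposite directions. Among 14 Notch pathway genes, Dlk2, the relative of Dlk1, rose from 0.0998 ± 0.0198 to 2.77 ± 2.85 FPKM, with a spread as large as its mean. Dll4, Notch3 and Heyl fell between 1.95-fold and 2.15-fold. These calls, 1 higher and 3 lower of 14, were near the share of all genes tested that were called, 28.7%. Grb14, a relative of Grb10, fell 11.7-fold, from 32.3 ± 0.771 to 2.64 ± 1.98 FPKM. Over all genes tested, 14.4% were called higher and 14.3% lower. Of 17 developmental muscle genes 9 rose and 1 fell, with a median of 1.19. Chrng, the fetal acetylcholine receptor subunit, rose 105-fold, Myog 37.5-fold, Myod1 16.0-fold and Ncam1 8.64-fold. Myh8, the perinatal myosin, was the 1 that fell (adjusted p = 0.0498), and it was named after its value was seen.

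Over the 21 lists together, 74 of 187 genes tested were called in denervated WT muscle, where 28.7% of all genes tested were called. Leaving out either innervated library left fewer list genes called, and likewise fewer of all genes, so the list calls rest on both innervated libraries. Comparing the denervated groups, edgeR called 0 of the 187, limma 0 and DESeq2 2. In that comparison Tnnt2 of the developmental muscle list (-1.56 ± 0.34, edgeR adjusted p = 0.357) had the smallest p of the list genes. Slc25a29 (-1.07 ± 0.24, edgeR adjusted p = 0.357) had the smallest p of the cluster neighbours, and Igfbp6 (-0.57 ± 0.15, adjusted p = 0.476) that of the IGF list.

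The members' patterns were compared over the 6 libraries. Pearson's r of log2(FPKM + 0.5) was 0.97 for Mest with Meg3, 0.94 for Mest with Igf2, 0.94 for Igf2 with Plagl1 and 0.95 for Igf2r with Peg3, and -0.94 for Igf2r with Cdkn1c. H19, on its FPKM, had r between -0.61 and 0.32 with the others, and Grb10 between -0.61 and 0.61. These are descriptions over libraries that share groups and scaling. Among all other genes tested, the pattern most like Cdkn1c was that of Lrrc27 (r = 0.9997), and most like Meg3 that of S100b (0.999), at 1.66, 0.695, 0.787, 1.29, 0.447 and 0.656 FPKM in WT innervated, WT denervated and DKO-labelled replicate 1 and then replicate 2. S100b is also 1 of the Schwann cell markers above. Igf2r was most like Smc2 (0.998), Mest like Zfp661 (0.997), Peg3 like Eef1a1 (0.996), Igf2 like Tgm4 (0.992) and Plagl1 like Hoxa9 (0.991). H19 was most like Mrpl22 (0.986), on FPKM that differ from its fragments, and Grb10 like Arhgap26 (0.985). Between 0 and 24 genes per member passed r of 0.99.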

How the data were processed

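The authors deposited 1 table per library. The submitters' processing notes name build mm9, Cuffdiff 2.0.2, TopHat2 2.0.3, Bowtie2 2.0.0.7, Trim Galore 0.2.1 and CASAVA 1.8.2, with no role for any of them. The annotation, and whether strand was used, are likewise not given in the sources used here. Each table holds, per the file headers, the authors' FPKM, a signal of externally scaled fragments (1 factor per library times the raw fragments) and raw fragments. The last are estimated counts per the file headers, since only 88.4% to 89.0% were whole (tolerance 1e-06). Each entry stood on 3 identical lines, and 21805 entries remained.

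Estimated counts were rounded and tested with edgeR 4.0.16 (R 4.3.3): quasi-likelihood, TMM scaling, all 6 libraries, 3 group means. Genes with a mean FPKM under 0.5 were left out, and 12247 were tested with 3 residual degrees of freedom. DESeq2 1.42.0 and limma 3.58.1 on log2(FPKM + 0.5) were among the alternatives. Replicates were numbered in accession order. A fold is 2 to the power of the fitted log2 change. Values by run are log2 differences of TMM-scaled CPM plus 0.5, with no test. The fits were tested on counts simulated with known changes.

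The members and lists were chosen with earlier results of these data known. One gene of the Schwann cell list is not reported here and was left out of that list's sums and counts. Named genes were all members, up to 4 called genes of smallest p per list or up to 2 where none was called, and the gene most like each member. In the tables Igf2 overlaps Igf2as and Mir483, Igf2r overlaps Airn and Mas1, Peg3 overlaps Apeg3, and Mest overlaps Copg2 and Mir335. How fragments were divided among them is not stated. Fragments were fractional in 6 libraries for Peg3, 5 for Meg3 and 4 for Igf2, and in 0 for Igf2r and Mest.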

Additional observations from a re-analysis of the deposited data

How the results depend on the processing

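Depth limits Dlk1, and the 2 libraries per group limit every other gene. Over the alternatives, the 5 calls of imprinted growth genes on denervation of WT muscle kept their direction, and the report names the libraries whose removal ended a call. For any change of a value below, the cause was not tested beyond the fewer libraries or genes in a fit.

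Leaving out 1 library in turn, the genes called on denervation of WT muscle ran from 83 to 2610 higher and from 119 to 2747 lower, the imprinted growth genes from 1 to 2 higher and 0 to 4 lower, and the list genes from 3 to 112. Comparing the denervated groups they ran from 0 to 45 higher and 0 to 74 lower, with 0 to 4 list genes. Comparing DKO-labelled with WT innervated muscle they ran from 245 to 2713 higher and 416 to 2812 lower, with 1 to 2 and 1 to 5 imprinted growth genes and 20 to 102 list genes.

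Library totals in place of TMM gave 3331 higher and 1144 lower in WT muscle and 3729 and 1239 for DKO-labelled against WT innervated muscle. Comparing the denervated groups, where edgeR called 3 higher and 2 lower, DESeq2 called 80 and 101 (2 of them list genes), no filter 29 and 31, and limma 17 and 18 with a pseudocount of 0.5 and 16 and 18 with 1. There a fit of the 4 libraries compared called 0 and 0, and 0 were lower with upper quartile scaling or a mean FPKM of at least 2, and 1 with library totals.

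Grb10 changed sign on denervation of WT muscle, at -0.034 (upper quartile), -0.036 (mean FPKM of at least 2), -0.0017 and -0.0019 (limma, pseudocounts 0.5 and 1), and from -0.13 to 0.19 with 1 library left out. Against WT innervated muscle it was 0.14 in DKO-labelled muscle with library totals, and from -0.48 to 0.077 with 1 library left out. Comparing the denervated groups with 1 library left out, the log2 change ran from -0.55 to 0.26 for H19, -0.32 to 0.12 for Peg3, -0.64 to 0.39 for Mest, -0.023 to 1.26 for Meg3, -0.88 to 0.068 for Plagl1 and -0.50 to 0.058 for Grb10.

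With a pseudocount of 1 the gene most like Peg3 was Gm6548 (r = 0.995), that most like Mest was Egr2 (0.996) and that most like Plagl1 was C1qtnf3 (0.992).

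The titles carry no replicate numbers, so runs of sample numbers only hint at a pairing. Over genes, the replicate differences of 2 groups correlated at 0.23 (both WT groups), 0.15 (WT innervated and DKO-labelled) and 0.45 (both denervated groups). A fit with the run as a replicate block called 2134 higher and 2327 lower on denervation of WT muscle and 3 higher and 1 lower between the denervated groups. With this block Plagl1 passed in denervated WT muscle (log2 -1.41, edgeR adjusted p = 0.0320) and in DKO-labelled against WT innervated muscle (-1.84, 0.0146), and no other imprinted growth gene changed its call.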
